A study of Mus musculus with 6 samples.

Results

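The Bcl2 family decides whether a cell under stress releases cytochrome c from its mitochondria. The members described here are the 10 genes of that family named for this account by gene symbol, and 10 of the 22081 genes in the table of values carry these symbols. They are 4 pro-survival genes (Bcl2, Bcl2l1, Bcl2l2 and Mcl1) and 6 pro-death genes. The pro-death genes are the 2 effectors Bax and Bak1 and the 4 BH3-only genes Bcl2l11, Bid, Bad and Bmf. No measured value was used to choose them, but they were chosen with earlier results of these data known.

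As background, BAX and BAK1 open pores in the outer mitochondrial membrane, and released cytochrome c then starts the caspase cascade. BCL2, BCL-XL (the product of Bcl2l1), BCL-W (Bcl2l2) and MCL1 hold the effectors and the BH3-only proteins in check. BH3-only proteins carry only the short BH3 helix. They bind the pro-survival proteins, and some of them (BIM, the product of Bcl2l11, and BID) also activate the effectors. Much of this control acts on the proteins, through phosphorylation, cleavage and turnover, which RNA levels do not show.

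The study compared freshly isolated muscle stem cells (MuSCs, the stem cells of skeletal muscle) of control and Taf4asKO mice by RNA-seq, with 3 libraries per group on a C57BL/6 background. Taf4a is an older name of Taf4, a subunit of the general transcription factor TFIID. Taf4asKO mice carried floxed Taf4a alleles (Taf4a flox/flox) and a tamoxifen-inducible Cre at Pax7, a gene active in MuSCs, and received tamoxifen, which removes exons 11 and 12. According to the methods, controls were littermates that also carried the floxed alleles, with or without the Cre allele, and adult mice of both sexes aged 8 to 20 weeks were used. The titles call the control libraries WT and the genotype field calls them control. Which of these control genotypes, sex or age each library had is not given in the sources used here. Tamoxifen is named there for Taf4asKO mice, and whether the controls of these libraries received it is not stated. If they did not, effects of tamoxifen and of the deletion cannot be told apart. Cells were sorted as integrin alpha-7 positive, or by a Pax7 reporter, after removal of cells with SCA1, CD45 or CD31. The study reports incomplete purity when sorted cells were reanalysed, so levels below are those of the sorted cells as a whole.

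The values are normalized counts, that is, reads per gene divided by a factor for each library and rounded. Totals lay between 12338676 and 14551732 per library, and the factors were estimated at 0.858 to 1.33. The Taf4 gene total did not separate the groups. It was 478 to 613 in control and 565 to 631 in the libraries labelled Taf4asKO (log2 fold change 0.13, 95% interval -0.14 to 0.40, limma adjusted p 0.524). A gene total sums all exons and is a weak check of a deletion of a pair of exons, so directions below refer to the groups as labelled. The 6 MuSC markers summed to 27833 to 29348 normalized counts in control and 25177 to 25930 in Taf4asKO, but moved both ways. Myf5 (log2 fold change -0.85), Cdh15 (-0.52) and Itga7 (-0.43) fell and Vcam1 rose (0.74), while Pax7, the most abundant (-0.21), and Calcr (0.066) did not pass. Markers of other cells were also read, and most abundant refers here to the mean normalized count over all 6 libraries, not divided by length. Those of Schwann cells summed to 842 to 2255 and 2757 to 3300, and 3 of 4 genes rose. The endothelial sum was 878 to 1263 and 1389 to 1680, with log2 fold changes of 0.30 (Tek, the most abundant) to 1.49 over 5 genes and limma adjusted p of 0.0957 to 0.199. Cdh5 and Kdr among them passed, as higher, once same-numbered libraries were paired (limma adjusted p 0.0178 and 0.0127). The blood cell sum was 422 to 538 and 666 to 924, for 3 of 6 listed genes. Its difference lay in Lyz2, the most abundant (means of 257 and 559, limma adjusted p 0.0699, and past the threshold when paired, 0.00396), while Cd68 and Csf1r had log2 fold changes of -0.030 and -0.56. Ptprc (CD45), Cd3e and Itgam had no row among the values analysed here. None of these sums overlapped between groups. The fibro-adipogenic sum was 53301 to 79195 and 33227 to 55257. Of its 6 genes Col3a1, which had the highest count in control but not in Taf4asKO, fell (-1.58), and the other 5 had log2 fold changes of 0.54 to 1.24 and did not pass. Pdgfra, Dcn, Col1a1 and Lum among them passed, as higher, in a fit that paired same-numbered libraries. The smooth muscle sum was 8295 to 12870 and 12607 to 14527. Of its 4 genes Rgs5 (1.06) and Myh11 (0.69) rose, Kcnj8 had 1.08 (limma adjusted p 0.0567, and past the threshold when paired, 0.0103) and Acta2, the most abundant, -0.31 (limma adjusted p 0.365). The myofibre sum was 1170 to 3618 and 2045 to 2602, with -0.16 to 0.46 over 5 genes (Acta1, the most abundant, 0.33) and limma adjusted p of 0.297 to 0.982. These last 3 sums overlapped. Of the genes behind the sort, Pecam1 (CD31) had 31 to 86 and 77 to 142 normalized counts, and Ly6a (SCA1) had 2 to 14 and 8 to 13.

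A gene was counted as changed with a Benjamini-Hochberg adjusted p under 0.05 over all genes and a fold change of at least 1.3 (limma on log2(value + 1)). Of the 10 members, 2 passed, and both were higher in the libraries labelled Taf4asKO. They were the BH3-only gene Bcl2l11 and the pro-survival gene Bcl2. Of all 18562 genes tested, 12.6% passed, 5.93% higher and 6.71% lower, so 2 of 10 is a share close to this background. All 10 members had a mean of at least 5 and were tested. Their median log2 fold change was 0.20, against 0.0040 for all genes tested. Every member also had a mean of at least 50. In a fit of all genes with such a mean, 2157 of 11323 passed and the median was 0.0381. The pro-survival median was 0.29 and the pro-death median 0.070. Same-numbered libraries of both groups deviated together weakly (correlations of 0.126 to 0.235), so a paired fit was made as well, which takes the number as a replicate block. This pairing rests on the same values, and no label states it. With the block 18.1% of all genes passed, and 4 of 10 members, Bcl2l1 and Bmf in addition, all higher. For 5 members the 3 Taf4asKO values lay entirely above or below the 3 control values, which holds for 33.0% of all genes tested. These were Bcl2, Bcl2l1 and Bcl2l11 (above) and Bak1 and Bid (below). In these bulk libraries fewer cells of a type and less RNA per cell cannot be told apart. The part of other cell types, whose marker sums are given above, in these differences was not tested.

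**Figure D1:**
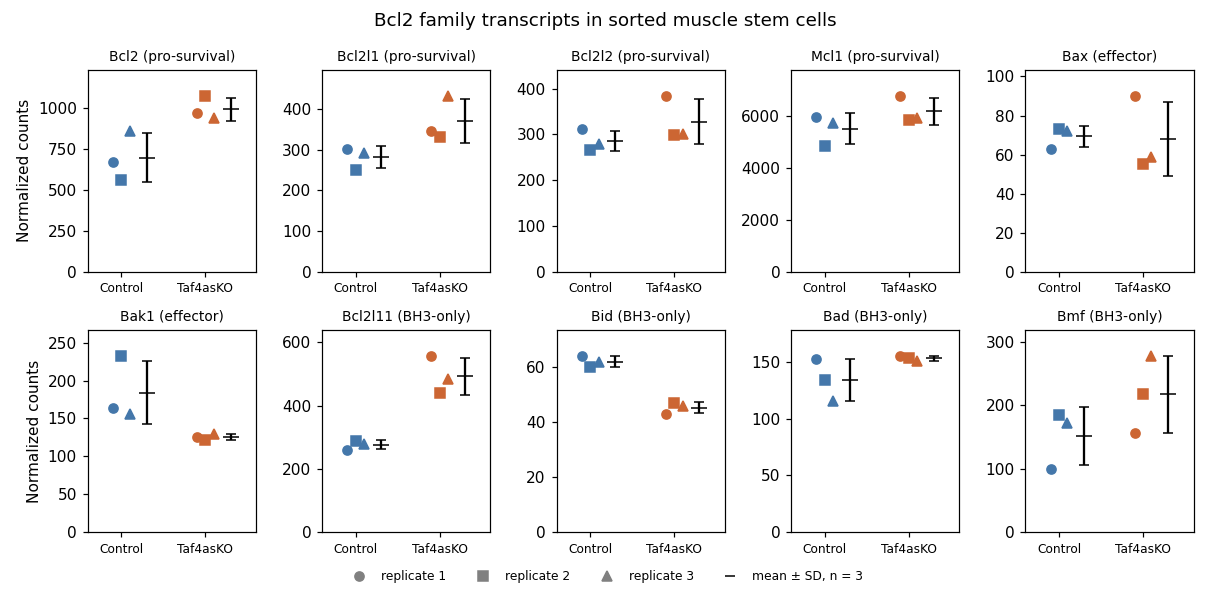
Normalized counts of the 10 members in each library, with a y axis from 0 for each gene. Symbols mark replicate numbers, and bars give the mean ± SD (n = 3). The Taf4asKO values of Bcl2l11 (439 to 556) lie above all control values (261 to 288), and those of Bid (43 to 47) lie below (60 to 64).

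The members differed widely in level. To set levels of different genes side by side, normalized counts were taken per kilobase of exon, with the exon length of GENCODE M21. In control, Mcl1 stood at 1617 ± 172 per kilobase (SD, n = 3), far above every other member. The next was Bak1 at 76.4 ± 17.3, followed by Bcl2 at 76.2 ± 16.6, Bcl2l2 at 64.0 ± 5.10 and Bcl2l1 at 61.3 ± 5.98. Bad had 52.5 ± 7.23 and Bax 44.0 ± 3.49 per kilobase. The lowest were Bcl2l11 at 34.4 ± 1.73, Bmf at 28.9 ± 8.76 and Bid at 17.5 ± 0.563. From Bak1 to Bax the ranges of the 3 libraries of each neighbouring pair overlapped, and so did those of Bcl2l11 and Bmf. The ranges of Mcl1 and Bak1, of Bax and Bcl2l11 and of Bmf and Bid did not overlap. In the libraries labelled Taf4asKO the order began with Mcl1 (1810 ± 152) and Bcl2 (109 ± 7.68) and ended with Bmf (41.3 ± 11.5) and Bid (12.8 ± 0.586). Bcl2l11 (61.4 ± 7.36) then stood at rank 5, and its range overlapped that of Bcl2l2 (73.5 ± 10.9) above and Bad (59.9 ± 0.814) below. Bak1 (52.3 ± 1.66) stood at rank 7.

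**Figure D2:**
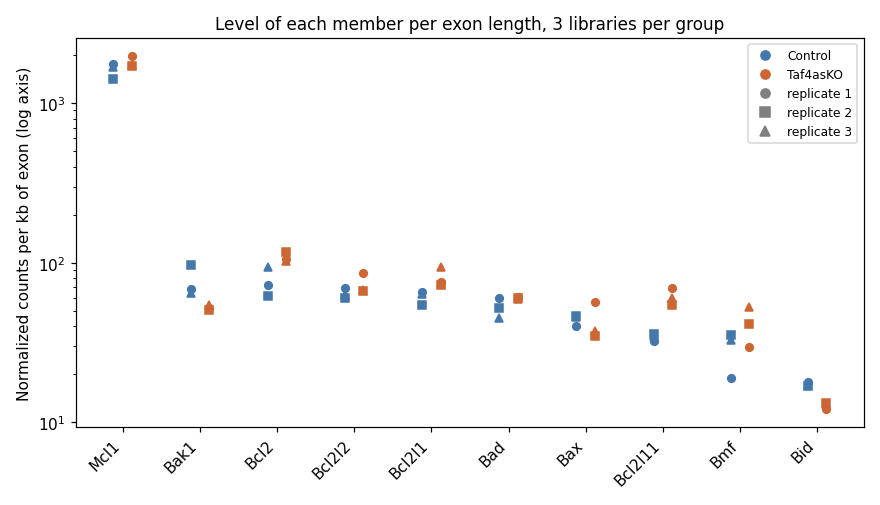
Level of each member as normalized counts per kilobase of exon on a log axis, ordered by the control mean, with 3 libraries per group and symbols for replicate numbers. Mcl1 lies at 1617 in the control mean, and the other members lie between 17.5 and 76.4.

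Mcl1 thus made up most of the pro-survival RNA. On the per-kilobase scale it held 88.4% to 89.4% of the summed pro-survival level in control libraries and 86.8% to 88.1% in Taf4asKO libraries. The 4 pro-survival genes together held 85.0% to 89.2% of the summed level of all 10 members in control and 87.9% to 88.9% in Taf4asKO, and these ranges overlap. The share of Bcl2l11 in the summed BH3-only level was 25.2% to 26.7% in control and 32.2% to 40.3% in Taf4asKO, without overlap. These shares are descriptions and carry no test.

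Among the pro-survival genes, Bcl2 was the 1 that passed. It encodes the founding member of the family, an inhibitor of effector pores. Bcl2 (ENSMUSG00000057329, minus strand of mm10 chromosome 1, 106538178 to 106714274) gave 668, 563 and 862 normalized counts in the control libraries and 968, 1074 and 941 in the Taf4asKO libraries. All 3 Taf4asKO libraries were above all control libraries, and control replicate 3 came closest to them. The means were 698 ± 152 and 994 ± 70.3 (SD, n = 3). The log2 fold change was 0.53 (SE 0.15, 95% interval 0.20 to 0.86, limma adjusted p 0.0427). This call was close to the threshold. It was lost under total-count scaling (0.53, limma adjusted p 0.0798) and upper-quartile scaling (0.50, 0.0717), and when any library other than control replicate 3 was left out (log2 fold change 0.39 to 0.57, limma adjusted p 0.0647 without control replicate 2 to 0.169 without Taf4asKO replicate 2).

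Bcl2l1, whose main product BCL-XL protects many cell types, came next. Bcl2l1 (ENSMUSG00000007659, minus strand of chromosome 2, 152780668 to 152831728) gave 301, 250 and 293 normalized counts in the control libraries and 347, 331 and 432 in the Taf4asKO libraries. The groups did not overlap, and Taf4asKO replicate 3 was the highest library. The means were 281 ± 27.4 and 370.0 ± 54.3 (SD, n = 3), with a log2 fold change of 0.39 (SE 0.14, 95% interval 0.073 to 0.70, limma adjusted p 0.102). In the paired fit it passed (limma adjusted p 0.0482). Bcl2l1 is spliced into a long and a short product of opposite function, which a gene total does not separate.

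Bcl2l2 and Mcl1 did not pass, and in both the groups overlapped. Bcl2l2 (ENSMUSG00000089682, chromosome 14, 54883377 to 54888234, plus strand) encodes BCL-W. It gave 311, 267 and 279 normalized counts in the control libraries and 384, 298 and 302 in the Taf4asKO libraries, so only Taf4asKO replicate 1 stood above the control range. Its log2 fold change was 0.19 (SE 0.14, 95% interval -0.12 to 0.50, limma adjusted p 0.401). Mcl1 encodes a short-lived protein on which many stem and progenitor cells depend. Mcl1 (ENSMUSG00000038612, plus strand of chromosome 3, 95658788 to 95663176) gave 5989, 4865 and 5729 normalized counts in the control libraries and 6785, 5850 and 5929 in the Taf4asKO libraries. The groups overlapped, and again Taf4asKO replicate 1 was the highest. The log2 fold change of Mcl1 was 0.17 (SE 0.11, 95% interval -0.080 to 0.41, limma adjusted p 0.356). The value fell to 0.076 without control replicate 2 and to 0.097 without Taf4asKO replicate 1, and that of Bcl2l2 fell to 0.073 without Taf4asKO replicate 1.

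The effectors did not pass in either fit. Bak1 (ENSMUSG00000057789, minus strand of chromosome 17, 27019810 to 27029009) gave 164, 232 and 156 normalized counts in the control libraries and 126, 122 and 130 in the Taf4asKO libraries. The Taf4asKO values were all below the control values, and control replicate 2 stood apart from the other control libraries. The means were 184 ± 41.8 and 126 ± 4.00 (SD, n = 3), with a log2 fold change of -0.52 (SE 0.18, 95% interval -0.92 to -0.12, limma adjusted p 0.0845). The block left it short of the threshold as well (limma adjusted p 0.0550), and without control replicate 2 the log2 fold change was -0.34.

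Bax is the other effector and a known target of p53. Bax (ENSMUSG00000003873, minus strand of chromosome 7, 45461697 to 45466898) gave 63, 73 and 72 normalized counts in the control libraries and 90, 55 and 59 in the Taf4asKO libraries. Taf4asKO replicate 1 was the highest of all libraries, and the other two were the lowest. The means of 69.3 ± 5.51 and 68.0 ± 19.2 gave a log2 fold change of -0.059 (SE 0.23, 95% interval -0.58 to 0.46, limma adjusted p 0.902). This interval includes a fold change of 1.3 in either direction, so the libraries do not show that Bax was equal. Leaving out Taf4asKO replicate 2 or 3 turned the sign of Bax (0.074 and 0.024), and without each of the other libraries it was -0.28 (Taf4asKO replicate 1) to -0.021 (control replicate 2).

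Of the BH3-only genes, Bcl2l11 was the 1 that passed. Its product BIM binds every pro-survival protein and can activate BAX and BAK1. Bcl2l11 (ENSMUSG00000027381, plus strand of chromosome 2, 128126038 to 128162547) gave 261, 288 and 280 normalized counts in the control libraries and 556, 439 and 483 in the Taf4asKO libraries. The control libraries lay close together, and every Taf4asKO library was well above them. The means were 276 ± 13.9 and 493 ± 59.1 (SD, n = 3), a ratio of 1.78. The log2 fold change was 0.83 (SE 0.13, 95% interval 0.55 to 1.11, limma adjusted p 0.00291). With the block the limma adjusted p was 0.00119, and over the 6 fits that each left out a library it stayed between 0.00455 and 0.0204. The rise fell short of a fold limit of 2, and a test against the 1.3-fold limit itself gave a limma adjusted p of 0.0795.

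Bcl2l11 has 2 start sites in the RefSeq promoter table (GRCm38.p6, the build also called mm10). The 250 bases before each are shown because Bcl2l11 is the member with the clearest change, and those before the single Bcl2 start because Bcl2 is the other member that passed. Capitals mark matches to 2 motifs searched on both strands. One is CCAAT, the box bound by NF-Y, the partner of TAF4A that the study examined, and the other is GTAAACA, a core that FoxO factors bind. The motifs were chosen after the values were seen. The windows are chr2:128125788-128126037 (plus strand), chr2:128127325-128127574 (plus strand) and chr1:106714291-106714540 (minus strand), each written 5′ to 3′ and ending just before the start.
Bcl2l11, first start: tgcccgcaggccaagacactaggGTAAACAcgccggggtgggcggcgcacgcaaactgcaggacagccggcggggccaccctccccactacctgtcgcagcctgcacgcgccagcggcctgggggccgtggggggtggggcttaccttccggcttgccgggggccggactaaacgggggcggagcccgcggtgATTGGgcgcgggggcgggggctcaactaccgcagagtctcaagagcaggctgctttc
Bcl2l11, second start: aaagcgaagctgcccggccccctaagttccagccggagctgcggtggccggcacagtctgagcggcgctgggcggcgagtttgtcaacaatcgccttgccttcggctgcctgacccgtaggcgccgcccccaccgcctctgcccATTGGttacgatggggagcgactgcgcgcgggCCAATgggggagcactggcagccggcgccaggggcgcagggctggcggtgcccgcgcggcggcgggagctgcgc
Bcl2: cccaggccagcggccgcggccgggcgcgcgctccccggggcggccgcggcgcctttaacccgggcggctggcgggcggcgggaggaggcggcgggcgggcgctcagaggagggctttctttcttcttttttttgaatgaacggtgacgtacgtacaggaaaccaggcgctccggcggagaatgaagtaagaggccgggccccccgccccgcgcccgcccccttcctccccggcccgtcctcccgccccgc

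Before the first Bcl2l11 start, GTAAACA began 227 bases upstream on the forward strand, and CCAAT lay on the reverse strand 57 bases upstream. Before the second start CCAAT lay on the reverse strand 106 bases and on the forward strand 74 bases upstream. The Bcl2 window held neither motif. Over the 16 start sites of the 10 members, 5 windows of 3 genes (Bad, Bcl2l11 and Bmf) held CCAAT, and 1 window, of Bcl2l11, held GTAAACA. Of all 32851 windows in the table, 33.8% held CCAAT and 3.17% held GTAAACA. These matches describe letters and not binding. No match says only that the letters are not in the window.

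The other BH3-only genes did not pass without the block. Bmf encodes a BH3-only protein that is held at the cytoskeleton through dynein light chain 2. Bmf (ENSMUSG00000040093, minus strand of chromosome 2, 118528757 to 118549687) gave 99, 184 and 172 normalized counts in the control libraries and 156, 218 and 277 in the Taf4asKO libraries. Replicate 1 was the lowest in both groups, and within each number the Taf4asKO library was higher. The log2 fold change of Bmf was 0.53 (SE 0.27, 95% interval -0.067 to 1.12, limma adjusted p 0.224), and with the block it passed (limma adjusted p 0.0332). It was 0.25 without control replicate 1 and 0.33 without Taf4asKO replicate 3.

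Bid is cleaved by caspase-8 and links death receptors to mitochondria. Bid (ENSMUSG00000004446, minus strand of chromosome 6, 120892854 to 120916853) gave 64, 60 and 62 normalized counts in the control libraries and 43, 47 and 46 in the Taf4asKO libraries. The groups did not overlap and each was narrow, with means of 62.0 ± 2.0 and 45.3 ± 2.08 (SD, n = 3). The log2 fold change was -0.44 (SE 0.20, 95% interval -0.90 to 0.0096, limma adjusted p 0.182), and it did not pass with the block (0.193).

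Bad, whose product is kept inactive by Akt phosphorylation, did not pass. Bad (ENSMUSG00000024959, plus strand of chromosome 19, 6941861 to 6951898) gave 153, 134 and 116 normalized counts in the control libraries and 155, 154 and 151 in the Taf4asKO libraries. Control replicate 1 lay within the narrow Taf4asKO range, so the groups overlapped. The log2 fold change of Bad was 0.20 (SE 0.16, 95% interval -0.15 to 0.55, limma adjusted p 0.444), and 0.098 without control replicate 3.

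**Figure D3:**
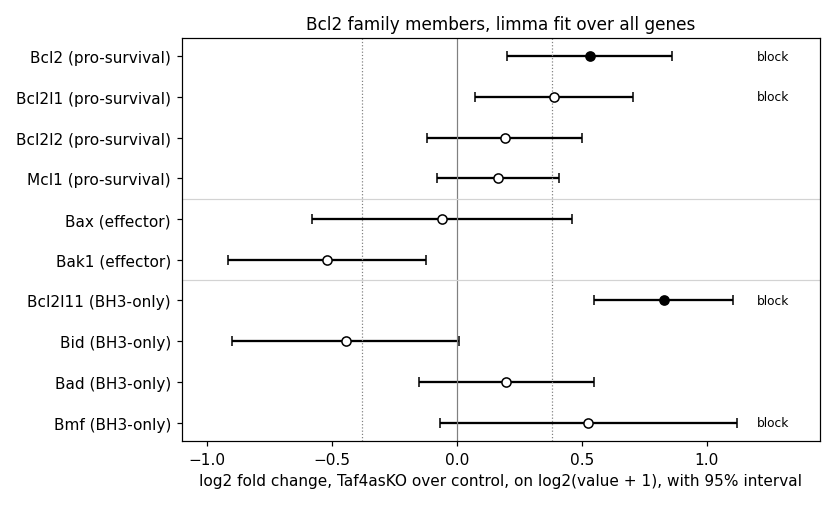
Log2 fold change of each member (Taf4asKO over control) with its 95% interval from the limma fit, grouped by role. Filled points passed the threshold, the word block marks members that passed in the paired fit, and dotted lines mark a fold change of 1.3. Bcl2l11 (0.83) and Bcl2 (0.53) are filled, and Bak1 (-0.52) and Bid (-0.44) lie lowest.

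The ratio of Bax to Bcl2 within a library does not depend on scaling. It was 0.0943, 0.130 and 0.0835 in control and 0.0930, 0.0512 and 0.0627 in Taf4asKO, as ratios of normalized counts not divided by length, so that it serves to compare libraries and not the levels of both genes. The groups overlapped, through Taf4asKO replicate 1. Within each replicate number the ratio was lower in Taf4asKO, though barely for replicate 1 (0.0943 and 0.0930). The ratio averaged 0.103 ± 0.0241 in control and 0.0690 ± 0.0216 in Taf4asKO (SD, n = 3). The mean log2 ratio differed by -0.59 (exact permutation test without pairing, two-sided, p = 0.2). With 3 libraries per group the smallest p is 0.1.

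Reads at exons shared with another gene bear on 6 members. In GENCODE M21 the share of exon bases that also belong to another gene was 6.09% for Bcl2 (D630008O14Rik), 25.5% for Bak1 (Ggnbp1), 17.7% for Bid (Bcl2l13) and 20.5% for Bad (Gpr137), all on the opposite strand. It was 13.3% for Bcl2l2 (Gm20521) and 12.2% for Bax (Gm45808), on the same strand. Bcl2l1, Mcl1, Bcl2l11 and Bmf shared none. The authors left out reads that overlapped several genes, and use of the strand in counting is not stated.

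The rest of the family and the pathway were read from 4 lists in the same fit. Of 15 other Bcl2 family genes, 9 were tested, and 1 passed, a share close to the 12.6% of all genes. Bnip3l, a mitochondrial protein that marks mitochondria for autophagy, rose from 439 ± 70.2 to 677 ± 42.7 normalized counts (SD, n = 3; log2 fold change 0.63, SE 0.13, limma adjusted p 0.0133). Without Taf4asKO replicate 2 or 3 none of the 9 passed, Bnip3l included. The median of the list was 0.195. With the block 3 passed, against 18.1% of all genes. The 2 added were the BH3-only genes Pmaip1 and Bbc3, both p53 targets and named here after their values were seen. Pmaip1 (NOXA, which binds MCL1) gave 38, 33 and 21 normalized counts in the control libraries and 99, 44 and 57 in the Taf4asKO libraries (log2 fold change 1.05, limma adjusted p 0.0717, 0.0220 with the block). Bbc3 (PUMA) had 131, 137 and 117 in control and 95, 80 and 44 in Taf4asKO (-0.87, limma adjusted p 0.0585, 0.0149 with the block). These BH3-only genes thus had opposite signs.

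Among genes of the mitochondrial pathway (the VDAC channels, cytochrome c and what acts after its release), 3 of 18 passed, all higher, with a list median of 0.14. This share is close to the 12.6% of all genes. Endog, a nuclease of the mitochondrial interior, rose from 17, 21 and 16 normalized counts to 41, 34 and 34 (log2 fold change 0.98, SE 0.28, limma adjusted p 0.0450). Diablo, whose product relieves the block that IAP proteins place on caspases, rose from 205 ± 47.1 to 316 ± 21.8 (0.65, SE 0.17, limma adjusted p 0.0311). Birc2, an IAP family ubiquitin ligase, rose from 806 ± 55.9 to 1111 ± 17.6 (0.47, SE 0.097, limma adjusted p 0.0125). Each time a Taf4asKO library was left out, none of these 18 genes passed, and 1 passed without control replicate 1 or 3. Exons of Endog overlap Spout1 and those of Diablo overlap B3gnt4, both on the opposite strand, and Diablo also shares exon bases with Gm49027 on its own strand. Among the others, Casp6, Casp9, Apaf1 and Cycs had log2 fold changes between -0.096 and 0.24, and none passed.

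Of 10 death receptor genes, 9 were tested and 0 passed by limma, against 12.6% of all genes. At an unadjusted limma p under 0.05 there were 3 of 9, against 5344 of all 18562 genes tested. The list median was 0.20. The largest differences were Fas (log2 fold change 0.82, limma adjusted p 0.0539) and Tnfrsf1a (0.37, limma adjusted p 0.0752). Cflar, an inhibitor of caspase-8 named here after its values were seen, had the lowest p of the list (0.36, limma adjusted p 0.0346) and missed only the fold limit of 1.3. Its means were 974 ± 68.1 and 1248 ± 26.1 normalized counts (SD, n = 3), without overlap. Fas gave 96, 56 and 89 normalized counts in the control libraries and 168, 147 and 109 in the Taf4asKO libraries, without overlap, and it passed with the block (0.0218). With limma-voom weights 0 passed as well, and without control replicate 1 the count was 2.

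Of 14 known regulators of the members 5 passed, against 12.6% of all genes. They were 3 higher and 2 lower, against 5.93% and 6.71% of all genes, and the list median was 0.16. Ddit3, a stress transcription factor that can induce Bcl2l11, rose from 202 ± 46.9 to 417 ± 126 normalized counts (log2 fold change 1.03, SE 0.23, limma adjusted p 0.0167). Dynll2, the dynein light chain that holds BMF, rose from 543 ± 51.5 to 792 ± 40.3 (0.55, SE 0.11, limma adjusted p 0.0107). Foxo3, a factor known to induce Bcl2l11, rose from 2012 ± 60.5 to 2887 ± 311 (0.52, SE 0.10, limma adjusted p 0.00954). Foxo4 fell from 975 ± 34.2 to 610.0 ± 13.9 (-0.68, SE 0.094, limma adjusted p 0.00190), and Akt1, a kinase that inactivates BAD and FoxO proteins, fell from 1617 ± 215 to 1217 ± 31.2 (-0.40, SE 0.11, limma adjusted p 0.0405). Exons of Ddit3 overlap Gm4189 and Mars on the opposite strand and another Ddit3 entry on the same strand. Trp53 (-0.24, limma adjusted p 0.159) and Mdm2 (0.17, limma adjusted p 0.405) did not pass, and neither did Huwe1, Usp9x and Fbxw7, which control MCL1 turnover (0.15 to 0.25). When a library was left out, the count of regulators that passed fell to 2 without Taf4asKO replicate 1 and to 3 without Taf4asKO replicate 2 or 3.

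**Figure D4:**
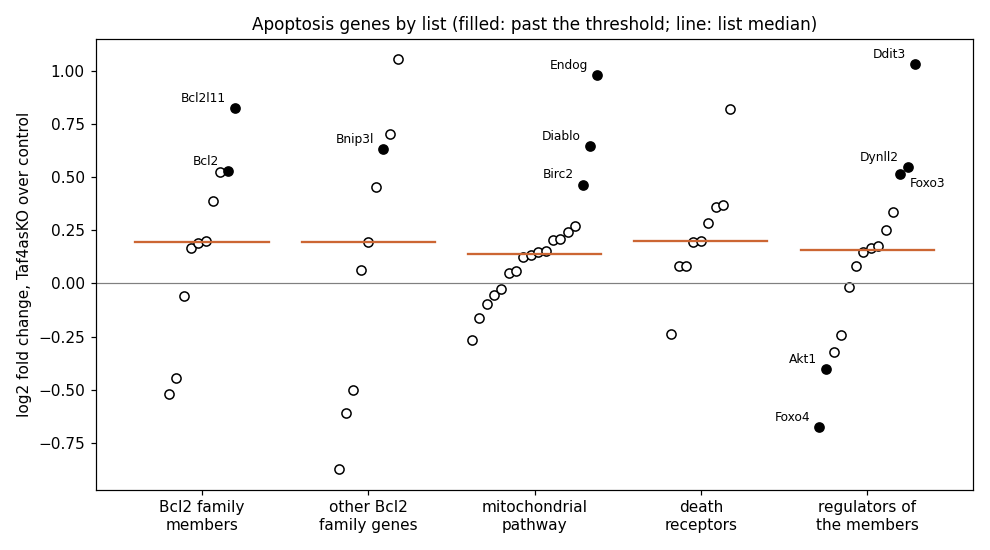
Log2 fold change (Taf4asKO over control) of every tested gene of the members and of 4 lists of related genes, ordered within each list. Filled points passed the threshold and are named, and horizontal lines give list medians, which run from 0.14 to 0.20. Both directions appear among the regulators, with Ddit3 (1.03) highest and Foxo4 (-0.68) lowest.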

How the data were processed

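Total RNA (10 ng input) of sorted MuSCs was profiled by the authors with a stranded low-input kit and single-end sequencing. Per the labels and the methods, the authors trimmed reads with Trimmomatic 0.39, aligned them to mm10 with STAR, removed reads with several positions, counted exons with featureCounts 1.6.0 and normalized with DESeq2 1.14.1. The deposited values are a score: counts scaled by each library's size factor, then rounded to whole numbers. The table held 0 value columns without a sample. Size factors, and from them reads, were estimated from the spacing of whole numbers.

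No count model was used, since the values are normalized and rounded. Genes with a mean of at least 5 entered a limma 3.58.1 fit under R 4.3.3 (intensity trend, two-sided, no covariate) on log2(value + 1), so fold changes of low genes are understated. The methods set these limits (adjusted p, fold of 1.3 and mean). The test was run on simulated data first. Replicate numbers come from the titles. After subtraction of group means, same-numbered libraries correlated at 0.235, 0.126 and 0.150 across genes, so the numbers were treated as pairs, and a replicate block was added in a paired fit. The study describes its samples as biological replicates. The titles do not say what a number shares. No pair of libraries within a group was identical or within sampling noise.

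Members and lists were chosen with earlier results of these data known. Named genes were all members, list genes past the threshold, the 2 largest differences of a list with none, Taf4 and the most abundant marker of each marker list. Some genes of these lists are not reported here by name. Others are said to be chosen later or illustrate a list. Markers other than the most abundant, Casp6, Casp9, Apaf1, Cycs, Trp53, Mdm2, Foxo1, Akt2 and genes of MCL1 turnover were named after their values were seen. Exon lengths and overlaps are from GENCODE M21, and promoter sequences are from RefSeq, where 10 of 10 members matched. Alternatives were other scalings, pseudocounts, filters and limits, limma-voom weights, the block and leaving out each library. Figures were drawn with matplotlib 3.10.9.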

Additional observations from a re-analysis of the deposited data

How the results depend on the processing

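With the replicate block 4 members passed in place of 2 (2 pro-survival and 2 pro-death), 3 other family genes in place of 1 and 1 death receptor gene in place of 0. The block changed no call among the mitochondrial genes and regulators in number (3 and 5), and 3355 genes passed in all. Under total-count or upper-quartile scaling 1 member and 0 pro-survival members passed, with 2227 and 2383 genes in all against 2347. At a fold limit of 2, 850 genes passed, with 0 members in either group, 0 other family genes, 0 mitochondrial genes and 1 regulator. With limma treat 435 genes passed, and 0 in each of these lists. With an adjusted p under 0.01, 876 genes, 1 member (0 pro-survival), 0 other family genes, 0 mitochondrial genes and 2 regulators passed. With a mean of at least 50, 1 death receptor gene passed. Leaving out each library gave 956 (without Taf4asKO replicate 3) to 3096 genes (without control replicate 2) in all, 1 to 2 members, 0 to 1 pro-survival members, 1 pro-death member in every fit, 0 to 2 other family genes, 0 to 3 mitochondrial genes, 0 to 2 death receptor genes and 2 to 6 regulators. Among the members, Bcl2 lost its call in 10 of 17 alternatives and Bcl2l11 in 2 of 17. Bax ranged from -0.28 to 0.074 when a library was left out, and every other member kept its sign in all 17. The log2 difference of the Bax to Bcl2 ratio ranged from -0.83 to -0.40 when a library was left out. Upper-quartile scaling moved the median of all genes to -0.0288. The cause of these changes was not tested. Bid and Bax had 43 to 90 normalized counts per library, the fewest of the members before division by length, which limits the precision of their values.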
